A study of Mus musculus with 20 samples.

Results

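The IkB family was described here by every probe set whose annotation named exactly 1 of the genes Nfkbia, Nfkbib, Nfkbie, Nfkbid, Nfkbiz and Bcl3. This gave 14 of the 44200 probe sets on the array: 5 for Nfkbia, 2 for Nfkbib, 2 for Nfkbie, 1 for Nfkbid, 3 for Nfkbiz and 1 for Bcl3. The array was the Affymetrix Mouse 430 v2, and 20 of them were hybridised with RNA of cells labelled as mouse pre-B cells. All 5 groups of lines were v-abl-transformed pre-B cells held in 3 uM STI571 (imatinib, an inhibitor of the v-abl kinase) for 48 hours, conditions under which such cells stop dividing and express the RAG recombinase. These groups were Artemis-deficient lines that also expressed a dominant negative IkB (IkB-DN lines, n = 3), Artemis- and ATM-deficient lines (n = 2, each on 2 arrays that were averaged), Artemis-deficient lines (n = 3), wild type lines (n = 3) and RAG-2-deficient lines (n = 3), the control. The bone marrow set held cells labelled as pre-B cells, all with an IgH transgene, of Artemis-deficient mice (n = 2) and of mice without RAG-1 (n = 2), which served as its control. RAG cuts DNA at antigen receptor genes, Artemis opens the hairpin ends that the cut leaves, and ATM is a kinase that signals the break, so Artemis-deficient cells keep such breaks and RAG-deficient cells do not make them. The series title names gene activation by RAG breaks, and the comparisons ask how IkB family transcripts differ with such breaks, without ATM and with blocked NF-kB.

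IkB proteins bind NF-kB dimers through ankyrin repeats. The classical members IkB-alpha (Nfkbia), IkB-beta (Nfkbib) and IkB-epsilon (Nfkbie) hold the dimers in the cytoplasm until IKK phosphorylates them and they are degraded, and Nfkbia and Nfkbie are known targets of NF-kB, which makes them feedback inhibitors. The atypical members IkB-NS (Nfkbid), IkB-zeta (Nfkbiz) and Bcl3 act in the nucleus, where they modulate transcription by bound dimers. A dominant negative IkB is a form that keeps holding NF-kB when cells are stimulated.

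Promoter windows are shown for Nfkbie, Nfkbid and Nfkbia, the family genes whose windows held a match to the NF-kB site. In RefSeq on GRCm38.p6, Nfkbia lies at chr12:55489409-55492647, Nfkbib at chr7:28758251-28766644, Nfkbie at chr17:45555700-45563169, Nfkbid at chr7:30421731-30428749, Nfkbiz at chr16:55811375-55838954 and Bcl3 at chr7:19808462-19822824. The 250 bases before each RefSeq start were searched on both strands for the kappa B consensus, the NF-kB binding motif, and 5 of the 6 genes had such a window. Each sequence below runs 5′ to 3′ on the strand of its gene, with matches in capitals.
Nfkbie, chr17:45555450-45555699, plus strand: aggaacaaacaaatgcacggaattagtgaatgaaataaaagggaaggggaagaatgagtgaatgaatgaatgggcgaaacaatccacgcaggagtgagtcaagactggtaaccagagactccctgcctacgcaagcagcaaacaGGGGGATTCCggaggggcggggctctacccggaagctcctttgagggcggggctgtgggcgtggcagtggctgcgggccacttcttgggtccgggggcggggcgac
Nfkbid, second of 3 starts, chr7:30422156-30422405, plus strand: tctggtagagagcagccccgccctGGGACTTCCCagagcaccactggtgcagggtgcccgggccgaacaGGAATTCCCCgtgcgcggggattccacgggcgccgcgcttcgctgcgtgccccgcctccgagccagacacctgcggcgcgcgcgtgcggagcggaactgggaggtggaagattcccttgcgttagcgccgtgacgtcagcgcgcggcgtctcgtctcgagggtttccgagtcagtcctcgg
Nfkbia, chr12:55492648-55492897, minus strand: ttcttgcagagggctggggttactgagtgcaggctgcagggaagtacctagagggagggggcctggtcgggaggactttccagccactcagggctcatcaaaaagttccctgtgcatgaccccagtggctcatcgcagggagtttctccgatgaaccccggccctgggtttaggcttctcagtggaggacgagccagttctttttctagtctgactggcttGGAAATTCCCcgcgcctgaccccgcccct
The match GGGGGATTCC of Nfkbie lay 106 to 97 bases before the start, and GGAAATTCCC of Nfkbia lay 29 to 20 bases before it. The second start of Nfkbid had GGGACTTCCC 226 to 217 bases before it, which matched on both strands, and GGAATTCCCC 181 to 172 bases before it. Of all 32851 windows of this length, 2382 (7.25%) held at least 1 match and 338 (1.03%) held 2 or more. The windows of Nfkbib, of Bcl3 and of the other 2 starts of Nfkbid held none. A match describes the letters in the window and is no measurement of binding.

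**Figure D1:**
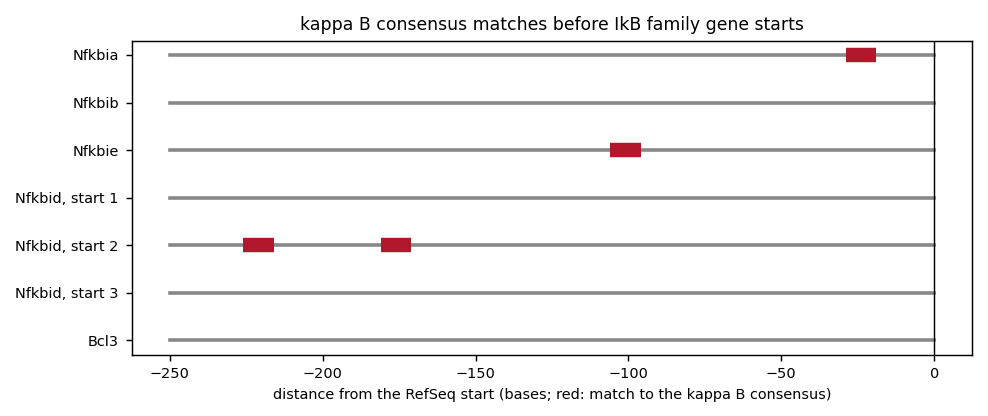
Matches to the kappa B consensus (red) in the 250 bases before each RefSeq start of an IkB family gene, with distance from the start in bases on the x axis and 1 line per start. Nfkbia and Nfkbie each have 1 match and the second start of Nfkbid has 2, while the Nfkbib, Bcl3 and other Nfkbid windows have none.

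Levels were compared only within the lines or within the marrow, since median signals were 26.8 to 27.7 on the line arrays and 46.9 to 47.8 on the marrow arrays. Of 11 pre-B marker genes, 10 or 11 lay at or above the array median in each line and 11 in each marrow sample. In the lines no erythroid or dendritic marker reached the median, and no more than 1 of 7 T and NK markers did. The 10 neutrophil and monocyte markers summed to signals of 649 to 789 in IkB-DN lines, 248 to 911 in Artemis- and ATM-deficient lines, 171 to 373 in Artemis-deficient lines, 153 to 411 in wild type lines and 127 to 206 in RAG-2-deficient lines. The 4 plasma cell markers summed to 1000 to 1100 in IkB-DN lines, 1040 to 1510 in Artemis- and ATM-deficient lines, 500 to 1530 in Artemis-deficient lines, 741 to 4620 in wild type lines and 1110 to 7140 in RAG-2-deficient lines. Their part in the line results was not tested. Atm, read by 1421205_at, had signals of 37.4 and 38.5 in Artemis- and ATM-deficient lines, 79.6 to 116 in Artemis-deficient lines and 190 to 195 in RAG-2-deficient lines. On a second Atm probe set, 1428830_at, the Artemis- and ATM-deficient lines were lower by less. The log2 differences were -0.48 from Artemis-deficient lines (adjusted p = 0.338 in limma) and -0.70 from RAG-2-deficient lines (adjusted p = 0.093 in limma). Rag2 signals in the RAG-2-deficient lines were 19.8, 255 and 327, and Rag1 signals in RAG-1-deficient marrow were 5360 and 6680. The sources used here do not say which part of either gene was deleted, so these probe sets do not check the labels. The title of the third wild type sample contains the letters ATM and the RAG-2-deficient titles contain the letters Bcl, neither of which the labels explain, and groups follow the source names. Correlations across probe sets between replicates were 0.976 to 0.983 in IkB-DN lines, 0.939 in Artemis- and ATM-deficient lines, 0.917 to 0.948 in Artemis-deficient lines, 0.902 to 0.93 in wild type lines and 0.927 to 0.941 in RAG-2-deficient lines. The design text calls the samples biological replicates, but gives no word on whether the 3 IkB-DN samples came from 1 line or several. The technical arrays of the Artemis- and ATM-deficient lines, which read 1 line each, correlated at 0.982 and 0.984, so the IkB-DN samples were about as alike as arrays of 1 line. If they are not separate lines, the p values of every comparison with them are too small, and so are those of the other line comparisons, which share their spread. Results were therefore also computed with these 3 averaged into 1 sample. Which IkB protein the dominant negative derives from, and whether a probe set of the family reads its transcript, is not given either.

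The filter kept 13 of the 14 probe sets in both sets of samples, and all counts below are out of these 13. It removed the second Nfkbib probe set, 1446718_at, whose signals were 2.99 to 24.3 in the 12 lines with a value. Signals were raised by 6 (lines) or 11 (marrow) and taken to log2, each change is a log2 difference given with its standard error (SE), and calls are at adjusted p below 0.05 in limma over all probe sets tested. In these bulk samples, fewer cells expressing a gene and less RNA per cell cannot be told apart.

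Nfkbie and Nfkbid were higher in Artemis-deficient than in control lines and lower again with blocked NF-kB. Nfkbia moved the same way, but only 1 of its 5 probe sets was called higher, and that call was fragile. With the 3 IkB-DN samples averaged into 1, only the fall of Nfkbie on 1458299_s_at kept its call. Nfkbiz gave no call in any comparison. Of the family, 4 of 13 probe sets (3 genes) were called higher between Artemis-deficient and RAG-2-deficient lines, where 0.695% of all probe sets were called higher, and the median change was 0.68 against -0.01 over all probe sets. Between wild type and RAG-2-deficient lines 1 was higher, against 0.430% of all, and between Artemis-deficient and wild type lines 1 was higher, against 0.311%. Between IkB-DN and Artemis-deficient lines 8 were lower (3 genes), against 1.01% of all, with a median of -1.17 against -0.001. Between Artemis- and ATM-deficient and Artemis-deficient lines 2 were lower (1 gene), against 0.215%. Of the 13, 10 had every ATM-deficient line below every Artemis-deficient line, but 5 of these read Nfkbia. Bcl3 was among them as well, which the filter kept through 2 Artemis-deficient lines alone. The share of all probe sets separated in this way was not computed, so this count has no background to be set against. Between IkB-DN and RAG-2-deficient lines 1 was lower, where 4.89% of all probe sets were. No member was called in limma between Artemis- and ATM-deficient and RAG-2-deficient lines (0.695% of all called in either direction, 1 member at an unadjusted p below 0.05) or between IkB-DN and Artemis- and ATM-deficient lines (6.71% of all, 4 members at an unadjusted p below 0.05). Many of these comparisons share the Artemis-deficient or the RAG-2-deficient lines, so their calls are not independent of each other.

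**Figure D2:**
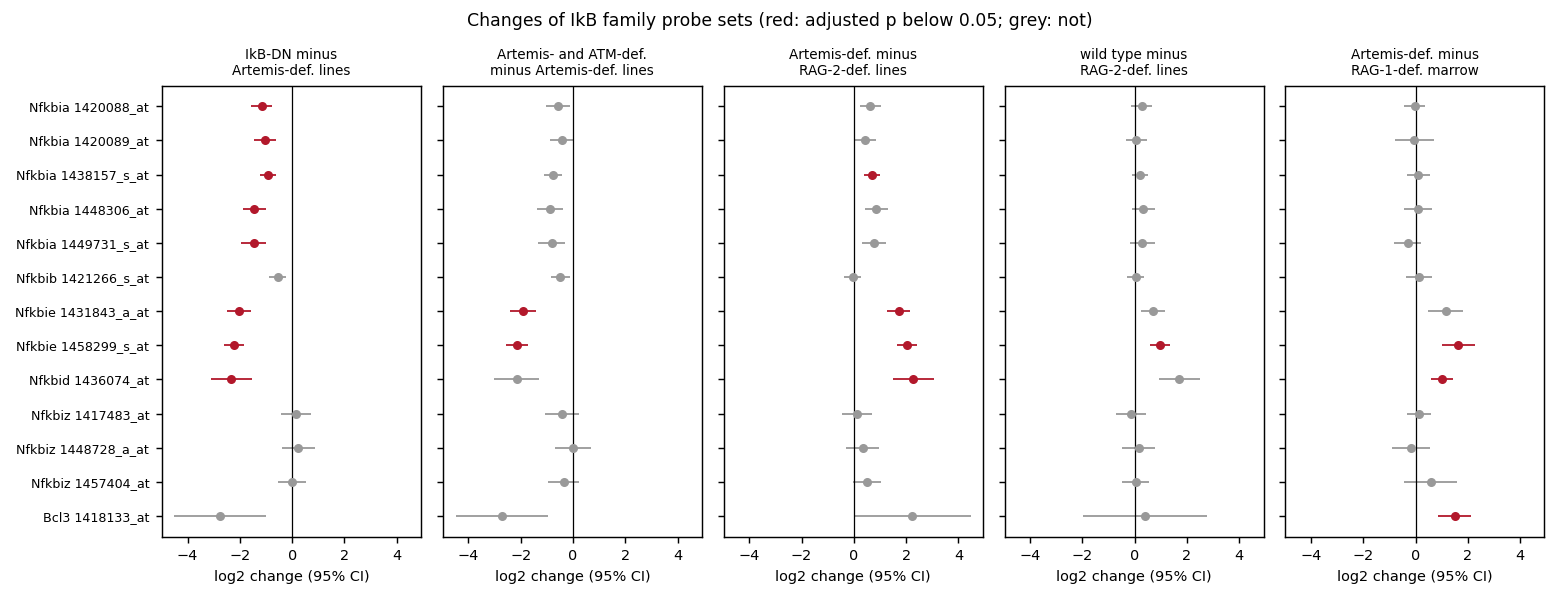
Log2 change with its 95% confidence interval (x axis) for each of the 13 tested IkB family probe sets (rows) in 5 comparisons (panels), with calls in red. The 5 Nfkbia, 2 Nfkbie and 1 Nfkbid probe sets are red in the panel of IkB-DN against Artemis-deficient lines, and the Nfkbiz probe sets are grey in every panel.

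**Figure D3:**
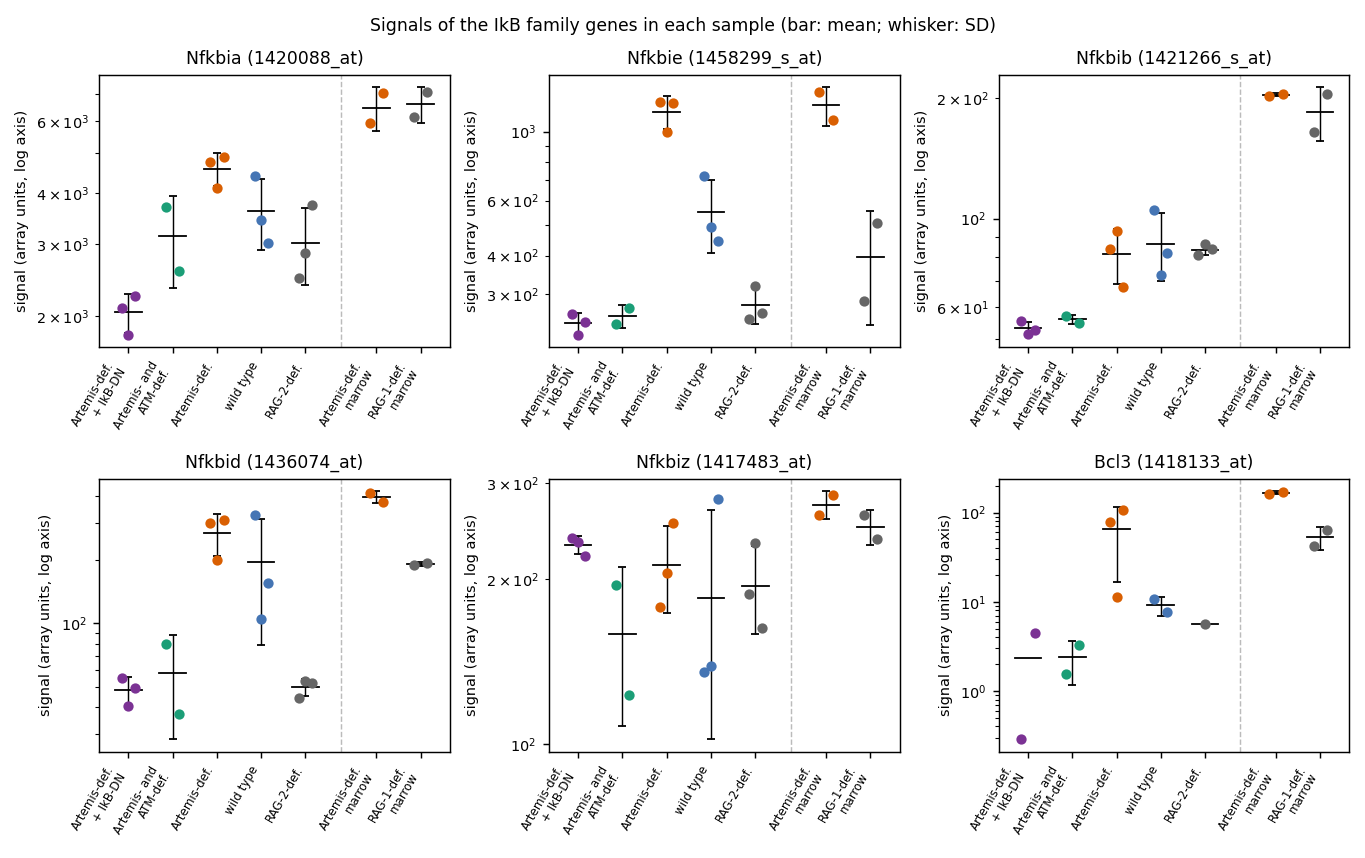
Signal in each sample (points, log axis, array units) for 1 probe set of each IkB family gene, the one with the highest mean level over the lines, with the group mean (bar) and SD (whisker, drawn where the mean minus the SD is above 0); the dashed line separates lines from marrow, whose levels are not to be compared. Nfkbie and Nfkbid are high in Artemis-deficient lines and marrow, and the 3 IkB-DN and 2 Artemis- and ATM-deficient lines lie near the RAG-2-deficient lines for both.

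Nfkbie, the gene of IkB-epsilon, was high in Artemis-deficient lines and low in the lines without RAG-2, without ATM or with the dominant negative IkB. On 1458299_s_at its signals were 1240, 999 and 1237 in Artemis-deficient lines, against 251, 320 and 262 in RAG-2-deficient lines. Every Artemis-deficient line lay above every control line, and the transcript rose 4.11-fold (95% CI 3.16 to 5.34; log2 change 2.04 ± 0.17 SE, adjusted p = 0.000115). The second probe set, 1431843_a_at, read 441, 347 and 460 in Artemis-deficient lines, against 115, 132 and 119 in RAG-2-deficient lines, a rise of 3.27-fold (95% CI 2.4 to 4.47; log2 change 1.71 ± 0.21, adjusted p = 0.00216). The suffix of 1458299_s_at marks probes that can match more than 1 transcript, but across the 14 lines the 2 probe sets had a Pearson r of 0.987.

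Without ATM the Nfkbie signal was at the level of the control lines. On 1458299_s_at it was 241 and 271 in Artemis- and ATM-deficient lines, and both lay below the lowest Artemis-deficient line. Nfkbie fell 4.43-fold relative to Artemis-deficient lines on this probe set (log2 change -2.15 ± 0.19, adjusted p = 0.000355) and 3.79-fold on 1431843_a_at (-1.92 ± 0.23, adjusted p = 0.00318). Against RAG-2-deficient lines the log2 differences were -0.11 (95% CI -0.53 to 0.32) and -0.21 (95% CI -0.71 to 0.29), and neither was called. The second call of this fall is lost when only the 2 groups enter the fit (adjusted p = 0.0545). In the second Artemis- and ATM-deficient line, the technical arrays read 220 and 334 on 1458299_s_at.

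With the dominant negative IkB the signal was low as well. The IkB-DN lines read 260, 223 and 246 on 1458299_s_at, all below the Artemis-deficient lines. Nfkbie fell 4.67-fold relative to Artemis-deficient lines on this probe set (log2 change -2.22 ± 0.17, adjusted p = 0.00012) and 4.09-fold on 1431843_a_at (-2.03 ± 0.21, adjusted p = 0.00128). The first call held with the 3 IkB-DN samples averaged into 1, and the second did not (adjusted p = 0.191). Between the IkB-DN lines and the Artemis- and ATM-deficient lines, the difference was -0.08 (95% CI -0.50 to 0.35), which was not called.

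Wild type lines, which can rejoin RAG breaks, lay between the extremes. Their Nfkbie signals on 1458299_s_at were 719, 495 and 444, below every Artemis-deficient line and above every RAG-2-deficient line. The transcript was 1.94-fold higher than in RAG-2-deficient lines (log2 change 0.96 ± 0.17, adjusted p = 0.0289). It was 2.12-fold higher in Artemis-deficient than in wild type lines (log2 change 1.08 ± 0.17, adjusted p = 0.02). On 1431843_a_at the same differences were 0.70 (adjusted p = 0.173) and 1.02 (adjusted p = 0.0583) and were not called. Leaving out wild type line 1, or RAG-2-deficient line 1 or 3, ended the first call (adjusted p = 0.0682, 0.103 and 0.102), and leaving out Artemis-deficient line 1 or 3 ended the second (adjusted p = 0.0558 and 0.0571). The order of Nfkbie levels in the lines was thus Artemis-deficient, wild type, then RAG-2-deficient lines, lines without Artemis and ATM, and IkB-DN lines. On 1458299_s_at the last 3 groups overlapped. On 1431843_a_at the IkB-DN lines read 88.5, 107 and 94.8 and the Artemis- and ATM-deficient lines 95.3 and 114.6, all below the lowest RAG-2-deficient line at 115.2, with no call for either group (log2 difference of IkB-DN lines -0.32, 95% CI -0.77 to 0.13).

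Nfkbid, the gene of the nuclear protein IkB-NS, had 1 probe set, 1436074_at, and the largest called changes of the family in the lines. Its signals were 299, 201 and 308 in Artemis-deficient lines, against 44.4, 53.2 and 52.0 in RAG-2-deficient lines. The groups did not overlap, and Nfkbid rose 4.85-fold (95% CI 2.83 to 8.31; log2 change 2.28 ± 0.36, adjusted p = 0.00972). In wild type lines its signals were 328, 105 and 155, all above the control lines but 1 of them above every Artemis-deficient line. The wild type difference from RAG-2-deficient lines was 1.70 ± 0.36 and just missed the threshold (adjusted p = 0.0516). It passed without wild type line 2 (adjusted p = 0.0171), and the difference between Artemis-deficient and wild type lines was 0.58 (95% CI -0.20 to 1.35), which was not called.

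Nfkbid was low in IkB-DN lines and in the lines without ATM. The IkB-DN lines had signals of 55.2, 40.5 and 49.3, and the transcript fell 5.01-fold relative to Artemis-deficient lines (log2 change -2.33 ± 0.36, adjusted p = 0.00907). This call was lost without IkB-DN sample 2 (adjusted p = 0.0632) and with the 3 IkB-DN samples averaged (adjusted p = 0.528). The Artemis- and ATM-deficient lines had signals of 79.7 and 37.1, both below every Artemis-deficient line, with a difference of -2.15 ± 0.40 that was not called (adjusted p = 0.0507). Without the first of these 2 lines it passed the threshold (-2.65, adjusted p = 0.0486). Neither group differed by a call from RAG-2-deficient lines, at -0.05 (95% CI -0.82 to 0.73) for IkB-DN lines and 0.13 (95% CI -0.74 to 0.99) for Artemis- and ATM-deficient lines.

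**Figure D4:**
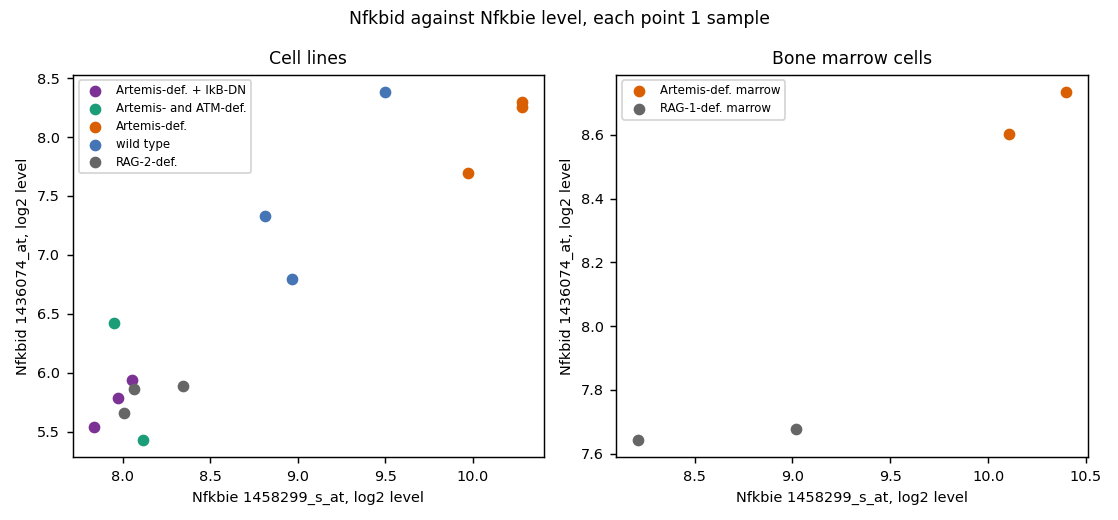
Nfkbid level (y axis, log2) against Nfkbie level (x axis, log2), each point 1 sample, with lines on the left and marrow on the right. The 3 Artemis-deficient lines are high for both genes, the wild type lines are intermediate for Nfkbie, and the IkB-DN, Artemis- and ATM-deficient and RAG-2-deficient lines form a low cluster.

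Nfkbia, the gene of IkB-alpha, was above the control lines in Artemis-deficient lines on every probe set, by less than Nfkbie and Nfkbid. On 1420088_at its signals were 4772, 4106 and 4886 in Artemis-deficient lines, against 2478, 2854 and 3734 in RAG-2-deficient lines. On all 5 probe sets every Artemis-deficient line lay above every control line, with log2 differences of 0.43 to 0.86. The share of all probe sets that separate these groups in the same way was not computed, so this separation has no background. These probe sets read the same gene in the same lines (r of 0.867 to 0.986 between them), so they are not 5 separate observations. Only 1438157_s_at passed the threshold, at 1.61-fold (log2 change 0.68 ± 0.14, adjusted p = 0.0401), and the other 4 had adjusted p values of 0.0676 to 0.346. That call is fragile: it was lost without any 1 of the 3 Artemis-deficient lines (adjusted p = 0.052 to 0.113) and without RAG-2-deficient line 1 or 2 (adjusted p = 0.152 and 0.109). It was also lost in 5 of the other settings, with adjusted p values of 0.0511 to 0.173.

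In IkB-DN lines Nfkbia fell on every probe set relative to Artemis-deficient lines. Signals on 1420088_at were 2089, 1795 and 2236 in IkB-DN lines, less than every other line. The log2 changes on the 5 probe sets were -0.94 to -1.47 (1.91-fold to 2.76-fold, adjusted p = 0.00646 to 0.0195). With the 3 IkB-DN samples averaged, none of the 5 was called (adjusted p = 0.436 to 0.672), and without IkB-DN sample 2 only 1448306_at was. The call of 1420089_at was also lost without Artemis-deficient line 1 or any 1 IkB-DN sample (adjusted p = 0.0507 to 0.0951). Against RAG-2-deficient lines the IkB-DN lines differed by -0.25 to -0.70, not called (adjusted p = 0.0622 to 0.283). Artemis- and ATM-deficient lines read 3690 and 2567 on 1420088_at and lay below every Artemis-deficient line on all 5 probe sets. Those differences, -0.43 to -0.88, were not called (adjusted p = 0.0852 to 0.551). In wild type lines Nfkbia read 4395, 3428 and 3010, with differences from RAG-2-deficient lines of 0.07 to 0.32 that were not called.

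**Figure D5:**
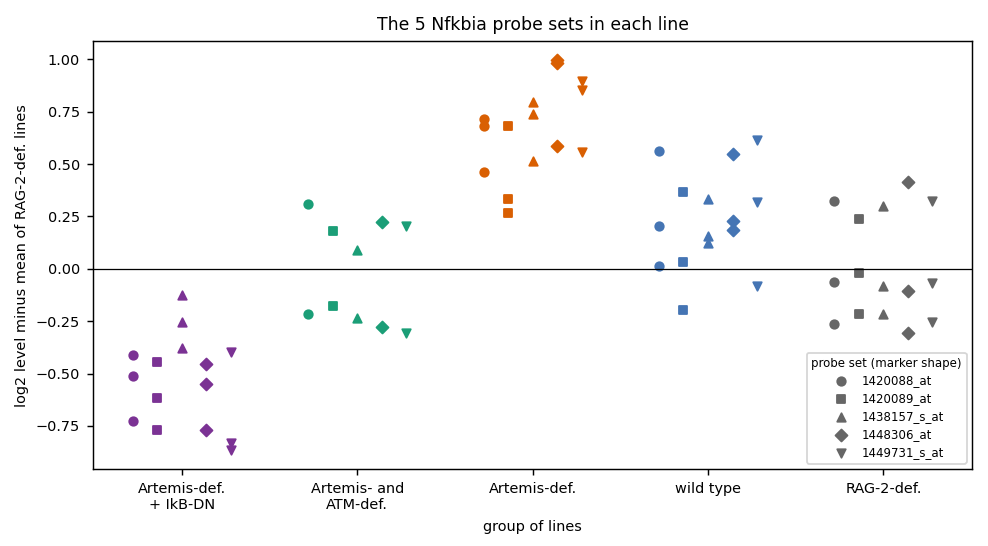
Level of Nfkbia in each line on its 5 probe sets (marker shape), as log2 level minus the mean of the RAG-2-deficient lines (y axis), by group of lines (x axis). On each probe set the 3 Artemis-deficient lines lie above 0 and the 3 IkB-DN samples below 0.

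Nfkbib, the gene of IkB-beta, was not called between Artemis-deficient and RAG-2-deficient lines. On 1421266_s_at its signals were 83.8, 93.0 and 67.5 in Artemis-deficient lines, against 80.9, 86.2 and 83.8 in RAG-2-deficient lines, and the groups overlapped (log2 difference -0.05, 95% CI -0.38 to 0.29). It was lowest in IkB-DN lines, at 55.4, 51.6 and 52.6, and in Artemis- and ATM-deficient lines, at 57.1 and 54.9. The IkB-DN lines were lower than RAG-2-deficient lines by a log2 of -0.60 ± 0.15 (adjusted p = 0.0297), a call that was lost when any 1 of the 6 samples was left out (adjusted p = 0.066 to 0.0994). The Artemis- and ATM-deficient lines differed from RAG-2-deficient lines by -0.53 ± 0.17, not called (adjusted p = 0.219). The 2 technical arrays of the first of these lines read 38.3 and 83.8, a log2 difference of 1.02, the widest of the 24 technical pairs of the tested probe sets, whose median was 0.131.

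Nfkbiz, the gene of IkB-zeta, gave no call in any line comparison. On 1417483_at its signals were 178, 205 and 253 in Artemis-deficient lines, against 188, 233 and 163 in RAG-2-deficient lines. The groups overlapped, and the 3 probe sets differed by 0.12 to 0.49 (adjusted p = 0.412 to 0.89). Between IkB-DN and Artemis-deficient lines they differed by 0.00 to 0.23 (adjusted p = 0.724 to 0.998). Signals in IkB-DN lines were 238, 234 and 221, in Artemis- and ATM-deficient lines 195 and 123, and in wild type lines 135, 139 and 280.

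Bcl3 was near the floor of the array in most lines. On 1418133_at it read 79.1, 11.4 and 106 in Artemis-deficient lines, against 5.64 in 1 RAG-2-deficient line and empty cells in the other 2. In IkB-DN lines it read 0.288 and 4.45 with 1 empty cell, in Artemis- and ATM-deficient lines 1.54 and 3.29, and in wild type lines 10.8 and 7.64 with 1 empty cell. Each line with a value was therefore below every Artemis-deficient line. Bcl3 passed the filter through Artemis-deficient lines 1 and 3 alone, so it had to be higher in that group. Most other readings lay below the 6 added to each signal, which therefore sets the size of a fitted difference. Such differences are plotted in the figure of log2 changes but not quoted here, and their size is not to be read. The fit left out the empty cells, so the control had n = 1. Bcl3 was not called between Artemis-deficient and RAG-2-deficient lines (adjusted p = 0.362), or in IkB-DN lines (adjusted p = 0.112) or Artemis- and ATM-deficient lines (adjusted p = 0.269) against Artemis-deficient lines.

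In the bone marrow samples, labelled as pre-B cells but with markers of other cells as given below, 3 of the 13 probe sets were higher in Artemis-deficient than in RAG-1-deficient mice. Of all probe sets, 1.81% were called higher there. Nfkbie read 1339 and 1092 on 1458299_s_at in Artemis-deficient marrow, against 285 and 508 in RAG-1-deficient marrow, and rose 3.11-fold (95% CI 1.99 to 4.85; log2 change 1.64 ± 0.27, adjusted p = 0.0342). Nfkbid read 415 and 378, against 189 and 194, and rose 2.01-fold (95% CI 1.49 to 2.71; log2 change 1.01 ± 0.19, adjusted p = 0.0401). Bcl3 read 162 and 172, against 42.2 and 64.0, and rose 2.82-fold (95% CI 1.83 to 4.35; log2 change 1.50 ± 0.27, adjusted p = 0.0385). Both Artemis-deficient samples lay above both controls for these 3 genes. On 1431843_a_at Nfkbie differed by 1.15 and was not called (adjusted p = 0.088).

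The other members did not differ by a call in marrow. Nfkbia read 5917 and 7028 on 1420088_at in Artemis-deficient marrow, against 6124 and 7075 in RAG-1-deficient marrow, and its 5 probe sets differed by -0.30 to 0.10 with overlapping groups. Nfkbib read 202 and 205, against 165 and 205. Nfkbiz read 670 and 225 on 1457404_at in Artemis-deficient marrow, against 260 and 255, so that 1 animal was high and the other low, and its other probe sets differed by 0.13 and -0.18. All 3 calls were lost without RAG-1-deficient sample 1 (adjusted p = 0.206 to 0.286) and without the intensity trend (adjusted p = 0.0612 to 0.076), and only Nfkbie was still called without RAG-1-deficient sample 2. Without Artemis-deficient sample 2, the low one on 1457404_at, that Nfkbiz probe set (adjusted p = 0.00734) and 1431843_a_at of Nfkbie (adjusted p = 0.0148) were called too.

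Markers of other cells were also present in every marrow sample, and they differed between the groups. All 10 neutrophil and monocyte markers lay at or above the array median in every marrow sample, with summed signals of 64600 and 68700 in Artemis-deficient marrow, against 37600 and 52400 in RAG-1-deficient marrow. The dendritic markers summed to 6070 and 8310, against 1150 and 2160, with 4 of 6 at or above the median in both groups. The T and NK markers summed to 3800 and 3860, against 1530 and 1930. Other lists went the other way, with erythroid markers at 1120 and 1580, against 1880 and 1890, and mature B markers at 579 and 594, against 916 and 1220. Plasma cell markers overlapped, at 3860 and 5240, against 4410 and 5100. The pre-B markers summed to 22700 and 31400, against 41100 and 46500. The part of these differences in the marrow results was not tested.

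No member was called in the test of whether the marrow change differed from the line change (0.459% of all probe sets called, adjusted p = 0.208 to 0.995 for the members in limma, 5 at an unadjusted p below 0.05). The point estimates for Nfkbia, marrow change minus line change, were -0.48 to -1.07. That of Nfkbid was -1.27 (95% CI -2.38 to -0.16) and that of Nfkbie on 1458299_s_at was -0.40 (95% CI -1.11 to 0.30).

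Across the 14 lines, which share culture and array platform and differ by group, Nfkbie on 1458299_s_at had a Pearson r of 0.932 with Nfkbid. Its r was 0.807 with Nfkbia on 1420088_at and -0.01 with Nfkbiz. With Bcl3 the r was 0.891 over the 10 lines with a value. The filter kept Bcl3 through Artemis-deficient lines 1 and 3 alone, where Nfkbie was high too, so this r was partly fixed by the filter. The 10 pairs of Nfkbia probe sets had r of 0.867 to 0.986, and the 3 Nfkbiz pairs 0.691 to 0.885. Among 9425 genes, those whose levels over the lines were most like Nfkbie were Sdhaf1 (r = 0.955), Swap70 (0.938) and Cyba (0.932). For Nfkbid they were Cyba (0.953), Zfp275 (0.951) and Nfkbie (0.932), and for Nfkbia Zdhhc21 (0.887), Ddx59 (0.872) and Psmb6 (0.871). For Nfkbib they were Prpf19 (0.917), Tmem109 (0.907) and Gadd45g (0.878), and for Nfkbiz Brpf3 (0.83), Casp1 (0.822) and Rab3gap2 (0.811). Bcl3 was not ranked because of its empty cells.

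Among the other genes of the pathway, the NF-kB subunits Relb and Nfkb2 were 2 of 4 tested subunits that rose in Artemis-deficient relative to RAG-2-deficient lines, by log2 changes of 1.10 ± 0.18 (adjusted p = 0.0133) and 0.78 ± 0.17 (adjusted p = 0.049). The subunit gene Nfkb1 had no probe set naming it alone, so it is not among these 4 here or below. The median over the 4 subunits was 0.51, against -0.001 over all genes, of which 78 of 9848 rose. The kinase gene Map3k8, 1 of 10 tested in its list, rose by 1.58 (adjusted p = 0.0362), and Tnfaip3, the gene of the ubiquitin-editing inhibitor A20 and 1 of 12 tested brakes on the pathway, rose by 1.68 (adjusted p = 0.00762). The smallest adjusted p was 0.138 among the 12 genes of IkB ubiquitination (Skp1) and 0.163 among the 7 genes of the relay between ATM and IKK (Parp1). Relb, whose product forms dimers with that of Nfkb2, fell in Artemis- and ATM-deficient relative to Artemis-deficient lines by -2.04 ± 0.20 (adjusted p = 0.000841), and no other gene of the 5 lists was called there. The next smallest adjusted p values in limma were those of the relay gene Pidd1 (-3.08, adjusted p = 0.0507), the brake Birc3 (-1.20, 0.0512) and Nfkb2 (-0.89, 0.0895). The limit given below on the size of the Pidd1 fall holds here too. Over all genes in that comparison, 25 of 9845 fell and 7 rose, and the median over the 4 subunits was -0.67, against -0.02 over all genes.

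In IkB-DN relative to Artemis-deficient lines, Relb fell by -2.55 ± 0.18 (adjusted p = 0.00012) and Nfkb2 by -0.82 ± 0.17 (adjusted p = 0.0292), 2 of the 4 subunits. Birc3, an inhibitor of apoptosis protein gene, and Cyld, a deubiquitinase gene, were the 2 of 12 brakes that fell (-1.14, adjusted p = 0.0159, and -0.87, adjusted p = 0.0259). Pidd1, whose product takes part in NF-kB signalling after DNA damage, was the 1 of 8 relay genes that fell (-3.54, adjusted p = 0.0123). Its probe set had only empty cells in the RAG-2-deficient lines and could not be tested against them. How far empty cells or low signals set the size of its fall was not tested. The median over the 4 subunits was -0.48, against 0.006 over all genes, of which 110 of 9830 fell. Relative to RAG-2-deficient lines, Relb was lower in IkB-DN lines (-1.45 ± 0.18, adjusted p = 0.000998), while Map3k8 (1.49, adjusted p = 0.0125) and Tnfaip3 (1.03, adjusted p = 0.0243) were higher. So were Skp1, a subunit of the IkB ubiquitin ligase (0.47, adjusted p = 0.0347), and Parp1, a sensor of DNA breaks (1.50, adjusted p = 0.0319), while Cyld was lower (-0.78, adjusted p = 0.0157). These were 1 of 4 subunits (Relb), 1 of 10 kinase genes (Map3k8), 2 of 12 brakes (Tnfaip3 and Cyld), 1 of 12 ubiquitination genes (Skp1) and 1 of 7 relay genes (Parp1), where 583 of 9818 genes were higher and 454 lower. In marrow, Map3k8 (1 of 10 kinase genes tested) and Tnfaip3 (1 of 11 brakes tested) rose in Artemis-deficient relative to RAG-1-deficient mice, by 1.58 (adjusted p = 0.0474) and 1.20 (adjusted p = 0.0292), where 184 of 9929 genes rose and 79 fell. None of the 4 subunits was called, with Nfkb2 at 1.14 (adjusted p = 0.173) and Relb at 0.72 (adjusted p = 0.251).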

How the data were processed

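The deposited values of the 20 arrays are log10 signals. The base was inferred from their range, since no label names it. Per the labels' protocols, arrays were read with Affymetrix GeneChip Operating Software, with summary and scaling methods not given in the sources used here. Of the cells 14.7% were empty and stayed empty. Signals were rebuilt, raised by the 25th percentile of each set (6 in lines, 11 in marrow) and taken to log2. Probe sets were kept where at least 2 samples reached their array's median, which left 21921 in lines and 19520 in marrow. Technical arrays were averaged. limma 3.58.1 in R 4.3.3 (lmFit, eBayes with trend) fitted all lines together (9 residual and 3.06 prior degrees of freedom) and the marrow alone (2 and 5.4). A joint fit over both sets tested the difference of the changes. P values are two-sided, with Benjamini-Hochberg adjustment over all probe sets tested. The scripts were tested on simulated data. Figures were drawn with matplotlib 3.10.9.

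The members and gene lists were chosen with earlier results of these data known. Every family probe set is accounted for. From each pathway list, up to 3 genes with the smallest adjusted p are named, and likeness names the 3 genes of highest Pearson r. A gene outside the family is represented by the probe set of highest mean level. Of the probe sets 34294 named 1 gene, 916 several and 8990 none. Promoter windows are from RefSeq (GRCm38.p6). A planned search of protein sequences was not run. Arrays have no read depth, and their number limits the precision.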

Additional observations from a re-analysis of the deposited data

How the results depend on the processing

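Of the 20 called family values, 5 kept their call in every setting and without any 1 sample: Nfkbid and both Nfkbie probe sets in Artemis-deficient against RAG-2-deficient lines, and Nfkbie on 1458299_s_at in Artemis- and ATM-deficient and in IkB-DN lines against Artemis-deficient lines. The Nfkbid call held narrowly, since its highest adjusted p in limma rounds to 0.05. The other 15 were lost at least once, and the cause was not tested. Of 1844 recomputed values, 51 lost and 12 gained a call, and none with a call changed sign, while 71 uncalled in both did. The settings were pseudocounts of 1 and 32, no filter, quantile normalization, empty cells as a signal of 0, no intensity trend, the first technical array only, the 2 compared groups only, and the 3 IkB-DN samples averaged as 1. Family calls in Artemis-deficient against wild type lines went to 0 from 1 with IkB-DN averaged and with 2 groups only, to 2 with a pseudocount of 32, and to 0 to 2 with 1 sample left out. Those in wild type against RAG-2-deficient lines went to 0 from 1 with IkB-DN averaged and with 2 groups only, to 2 with empty cells as 0, and to 0 to 2 with 1 sample left out. Those in Artemis- and ATM-deficient against Artemis-deficient lines went to 1 from 2 with 2 groups only. Those in IkB-DN against Artemis-deficient lines went to 1 from 8 with IkB-DN averaged and to 3 to 9 with 1 sample left out. Those in IkB-DN against RAG-2-deficient lines went to 0 from 1 with IkB-DN averaged and with no filter, to 2 with 2 groups only, and to 0 with any 1 sample left out. Those in marrow went to 0 from 3 without the trend and to 0 to 5 with 1 sample left out. Over all probe sets, averaging the IkB-DN samples gave 85 calls against 252 for Artemis-deficient against RAG-2-deficient lines, 13 against 110 for Artemis-deficient against wild type, 24 against 62 for Artemis- and ATM-deficient against Artemis-deficient, 46 against 152 for Artemis- and ATM-deficient against RAG-2-deficient, 39 against 182 for wild type against RAG-2-deficient, and 5 against 448, 4 against 1466 and 24 against 2173 for IkB-DN against Artemis-deficient, Artemis- and ATM-deficient and RAG-2-deficient lines. Using 2 groups only gave 103, 6, 22, 79, 27, 832 and 3275 for the first 7 of these comparisons in the same order. The trend left out gave 14 against 499 in marrow, and a pseudocount of 32 gave 202 against 81 for the difference between marrow and line changes. With 1 sample left out, the 8 line counts in that order were 100 to 210, 57 to 185, 30 to 68, 47 to 135, 74 to 319, 59 to 1089, 357 to 700 and 858 to 1532, the marrow count was 0 to 1248, and that of the difference was 10 to 134. Where a left-out sample leaves a group with 1 sample, that sample is assumed to vary like the other groups. No paired analysis was possible because replicate numbers follow the order of deposition and link no samples across groups. The number of samples limits the precision, and Bcl3 in lines is limited by its low signal.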
